A study of Mus musculus with 40 samples.

Results

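Scara3 was followed through 40 mRNA libraries, 20 of midbrain and 20 of spinal cord, from male C57BL/6N mice. The mice were 8 weeks old when obtained, before the treatments. It is 1 of 40213 gene symbols in the count tables and 1 gene on chromosome 14. It was chosen by its measured spinal cord levels, which were lower with SUEHP than with vehicle and higher again when either antagonist was added. The direction of the choice rests on the spinal cord MPTP-treated libraries. Midbrain levels entered as the comparison, with no direction asked of them, and all 40 libraries had been seen by then.

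Each tissue had 5 groups of 4 libraries. Con mice received saline and no MPTP. All other mice received MPTP, a neurotoxin that damages dopaminergic neurons, at 20 mg/kg in 4 intraperitoneal injections 2 h apart. MPTP-Veh mice were then given saline at the GB34 acupoint of the leg. MPTP-SU mice were given 4 injections of SUEHP, a herbal pharmacopuncture solution that contains deer antler extract, at the same site. MPTP-SU+S mice had the same MPTP and SUEHP with 3 mg/kg of a CB1 antagonist, written SR141714A in the labels and SR141716A in the study. MPTP-SU+T mice had the same MPTP and SUEHP with 5 mg/kg of T0070907, an inhibitor of PPARγ. No group received an antagonist without SUEHP, and none received SUEHP without MPTP. The antagonists were injected intraperitoneally in ethanol, Alkamuls EL-620 and saline, and the study describes no group given SUEHP with this solvent alone. An effect of the antagonist and one of its injection cannot be told apart here. The labels do not say whether a library came from 1 animal, so the p-values measure the spread between these libraries.

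Scara3 encodes a membrane protein of the class A scavenger receptor family, also known as cellular stress response protein. Its relatives are trimeric, with collagen-like stretches, and several of them take up modified lipoproteins, bacteria or other polyanionic ligands. Scara3 itself is known as a gene induced by oxidative stress, and its product has been described as limiting the damage done by reactive oxygen species. Such species are formed when the metabolite of MPTP blocks mitochondrial respiration, and they are one reason why an oxidant-responsive gene is of interest in this model.

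Midbrain libraries held 11958200 to 16639800 counts, and spinal cord libraries 14642800 to 16615400. Slc6a3, the dopamine transporter of midbrain dopaminergic neurons, lay between 17.6 and 128.2 CPM (counts scaled to a common library size) in the midbrain libraries and did not exceed 0.301 CPM in the spinal cord. Hoxc8, a positional gene of the spinal cord, lay between 54.5 and 78.7 CPM there and did not exceed 0.155 CPM in the midbrain. The tissue labels thus hold in all 40 libraries. Midbrain MPTP-Veh replicate 4 stood apart from the rest. Its rank correlation with the median of the other midbrain libraries was 0.888 against at least 0.987 elsewhere, and 1.35% of its counts came from mitochondrially encoded genes against at least 9.92% elsewhere.

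Scara3 was a gene of middling to low abundance, with 89 to 295 counts per midbrain library and 74 to 207 per spinal cord library. By mean level it ranked above 41.6% of the genes tested in midbrain and above 36.2% in cord. CPM values were scaled by TMM within each tissue unless stated otherwise. Within groups the coefficient of variation was 8.67% to 30.5%, and counting error alone at these depths would give 6.45% to 10.3%.

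In the spinal cord the 4 Con libraries read 4.91, 7.91, 7.18 and 6.72 CPM. The 4 MPTP-Veh libraries read 8.45, 10.3, 8.64 and 9.19 CPM. The 4 MPTP-SU libraries read 5.73, 5.51, 5.52 and 6.58 CPM. All MPTP-Veh libraries were thus above all Con libraries, and the MPTP-SU libraries were back among the Con values.

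The antagonist groups stood higher. The 4 MPTP-SU+S libraries read 9.15, 10.3, 7.22 and 8.32 CPM, and the 4 MPTP-SU+T libraries read 8.29, 12.0, 10.3 and 11.1 CPM. Each of these 8 libraries was above each MPTP-SU library, and 3 of the 4 MPTP-SU+T libraries were also above the highest MPTP-Veh library. The highest MPTP-SU library, at 6.58 CPM, and the lowest of the other MPTP-treated libraries, at 7.22 CPM, were the values on either side of the gap.

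**Figure D1:**
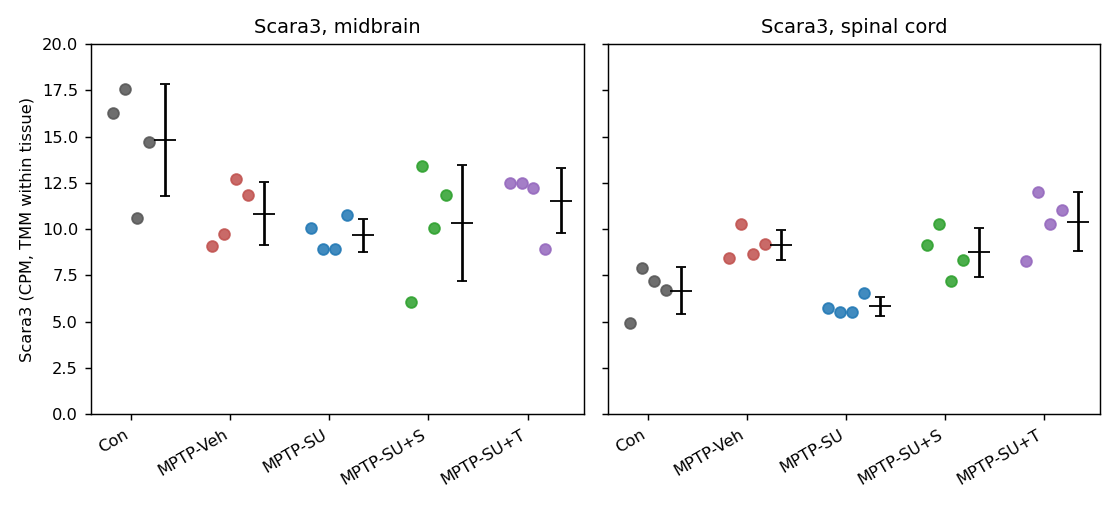
Scara3 level in CPM (vertical axis) in each of the 40 libraries by group (horizontal axis), midbrain on the left and spinal cord on the right. Points are libraries, and the black bar beside them is the mean ± SD of 4. In the spinal cord the 4 MPTP-SU points, at 5.51 to 6.58 CPM, lie below the 12 points of the other MPTP-treated groups, and in the midbrain they lie among them.

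The cord means were 6.68 ± 1.28 CPM for Con, 9.13 ± 0.81 for MPTP-Veh, 5.83 ± 0.51 for MPTP-SU, 8.74 ± 1.3 with SR141714A added and 10.4 ± 1.57 with T0070907 added (SD, n = 4). The log2 fold change from MPTP-Veh to MPTP-SU was −0.65 (SE 0.14). MPTP-SU+S lay above MPTP-SU by 0.58 (SE 0.14) and MPTP-SU+T by 0.84 (SE 0.14). These 3 differences chose the gene, so they are given as a description with no test. Across all genes, edgeR called 0 of 16682 genes (0%) between MPTP-SU and MPTP-Veh, where a call needed an adjusted p-value under 0.05 together with more than 1.5-fold. Unadjusted, 636 genes were under 0.05, and DESeq2 and limma-voom also called 0.

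The spinal cord comparison of MPTP-Veh with Con did not itself choose the gene, but its MPTP-Veh libraries did, since they had to lie above MPTP-SU. That choice favours a high MPTP-Veh level, so the difference from Con is also given as a description with no test. Scara3 differed by 0.45 (SE 0.14), a 1.37-fold higher mean with all 4 MPTP-Veh libraries above all 4 Con libraries. The edgeR model called 0 genes (0%) in this comparison, with 2139 at an unadjusted p-value below 0.05. DESeq2 called 1 gene and limma-voom 0. MPTP-Veh lay wholly above Con for 377 genes, or 2.26% of those tested.

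The 2 antagonists were compared directly on top of SUEHP, at different doses and at different targets. Spinal cord Scara3 was higher with T0070907 than with SR141714A by 0.25 (SE 0.13), and the libraries overlapped. Both groups had a part in the choice of the gene, though not this comparison between them. The difference is therefore also given as a description with no test. In this comparison 20 genes, or 0.12% of those tested, were called.

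The midbrain ran differently. Con libraries read 16.3, 17.6, 10.6 and 14.7 CPM. MPTP-Veh libraries read 9.09, 9.74, 12.7 and 11.8 CPM. MPTP-SU libraries read 10.1, 8.94, 8.94 and 10.8 CPM. Of the 4 Con libraries 3 were above every MPTP-Veh and MPTP-SU library, and Con replicate 3 was among them.

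The midbrain antagonist groups were spread more widely. MPTP-SU+S libraries read 6.07, 13.4, 10.04 and 11.8 CPM, which includes the lowest midbrain value. MPTP-SU+T libraries read 12.5, 12.5, 12.2 and 8.93 CPM. Both groups overlapped with MPTP-Veh and with MPTP-SU.

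Midbrain means were 14.8 ± 3.03 CPM for Con, 10.8 ± 1.71 for MPTP-Veh, 9.67 ± 0.90 for MPTP-SU, 10.3 ± 3.15 with SR141714A added and 11.5 ± 1.74 with T0070907 added (SD, n = 4). Against Con, MPTP-Veh stood at −0.45 on the log2 scale (SE 0.20, adjusted p = 0.195 by edgeR), with overlapping libraries (exact permutation test, p = 0.0857). The same model called 3 genes, or 0.018% of 16629. The midbrain difference did not pass the test. DESeq2 called 432 genes here and limma-voom 0.

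Between MPTP-SU and MPTP-Veh, where 13.5% of midbrain genes were called, Scara3 was not among them. Without MPTP-Veh replicate 4, 572 of 16831 genes were called in place of 2237 of 16629. Its log2 fold change was −0.17 (SE 0.21, 95% interval −0.60 to 0.27, adjusted p = 0.563 by edgeR; exact permutation test, p = 0.286).

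Adding an antagonist to SUEHP gave midbrain log2 fold changes of 0.10 (SE 0.21, 95% interval −0.33 to 0.53) for SR141714A and 0.25 (SE 0.21, 95% interval −0.18 to 0.68) for T0070907, both with an adjusted p of 1 by edgeR. MPTP-SU+T against MPTP-SU+S gave 0.16 (SE 0.20, 95% interval −0.27 to 0.59). In these 3 comparisons edgeR called 0 genes (0%), with 274, 283 and 130 genes at an unadjusted p-value below 0.05. DESeq2 called 0, 1 and 1, and limma-voom called 0 in each.

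Against Con, the midbrain values of the treated groups were also computed once the levels had been seen. MPTP-SU was lower by 0.61 on the log2 scale (−0.61, SE 0.20, adjusted p = 0.138 by edgeR), a 1.53-fold lower mean, where 0.764% of genes were called. With the 8 libraries of these groups modelled alone its adjusted p was 0.0256, and with library sizes that leave out mitochondrially encoded and haemoglobin genes it was 0.0412 at a value of −0.79, so the call depended on the model, with adjusted p from 0.0256 to 0.202 over 8 alternatives. MPTP-SU+S gave −0.52 (SE 0.20, adjusted p = 0.272 by edgeR) with 0.704% of genes called. MPTP-SU+T gave −0.36 (SE 0.20, adjusted p = 0.601 by edgeR) with 0.156% called.

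**Figure D2:**
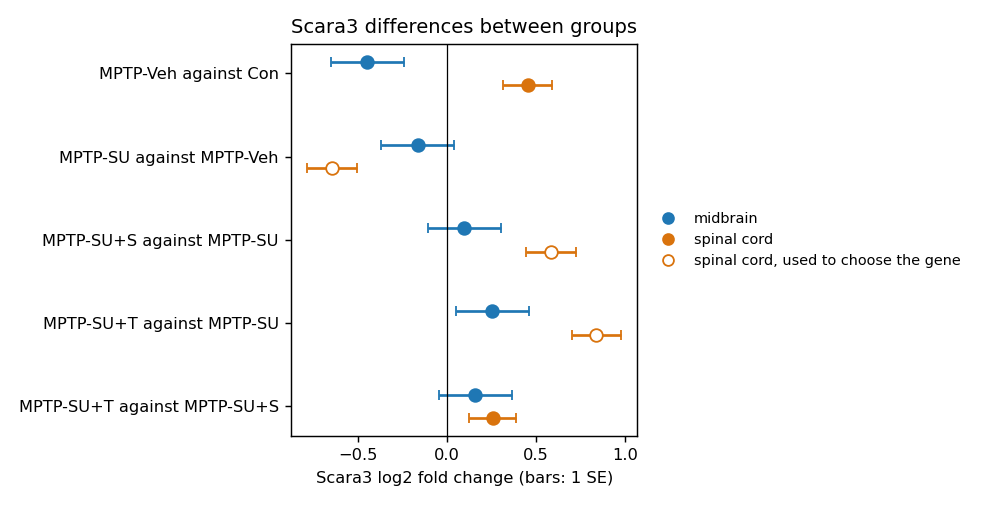
Log2 fold change of Scara3 (horizontal axis) for 5 comparisons between groups (vertical axis), in the midbrain (blue) and the spinal cord (orange), with bars of 1 SE. Open points are the 3 spinal cord comparisons that chose the gene. The MPTP-Veh against Con points lie on opposite sides of 0, at −0.45 and 0.45, while the midbrain points for SUEHP and the antagonists lie between −0.17 and 0.25.

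The fold changes of MPTP-Veh against Con in the 2 tissues were set side by side in 1 model over all 40 libraries. The midbrain value minus the spinal cord value was −0.91 (SE 0.25) on the log2 scale. The spinal cord MPTP-Veh libraries had to be high for the gene to be chosen, which pushes this difference towards negative values, so it is given with no test. Among all genes 427 of 17426, or 2.45%, were called for this difference, and 97 of 17621 without midbrain MPTP-Veh replicate 4. Without that replicate the Scara3 value was −0.94.

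Levels of the 2 tissues were compared on 1 scale, with TMM over all 40 libraries. In Con, the midbrain libraries read 10.6 to 17.7 CPM and the spinal cord libraries 4.83 to 7.91 CPM, with no overlap. Scara3 was 2.24-fold higher in the midbrain (log2 fold change 1.16, SE 0.18, adjusted p = 4.27e-06 by edgeR; exact permutation test, p = 0.0286, the smallest possible). In this comparison 16.4% of genes were called. Averaged over the 5 groups, which include those that chose the gene, the difference was 0.51 (SE 0.08), given with no test.

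The tissue difference was widest in Con, where the midbrain mean was 2.23 times the spinal cord mean. It was 1.67 times under SUEHP alone, 1.19 times both under vehicle and with SR141714A added, and 1.12 times with T0070907 added. The tissues' libraries overlapped in the last 3 of these and were apart in Con and MPTP-SU. From high to low, the 10 groups ran from midbrain Con (14.9 CPM) through midbrain MPTP-SU+T (11.6), MPTP-Veh (10.8) and MPTP-SU+S (10.4) to spinal cord MPTP-SU+T (10.4). They went on with midbrain MPTP-SU (9.71), spinal cord MPTP-Veh (9.13), MPTP-SU+S (8.73) and Con (6.65), and ended with spinal cord MPTP-SU (5.83). Each group overlapped with the next in this order.

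The non-overlap seen in the spinal cord was counted over all genes. MPTP-SU libraries lay below all 12 of the other MPTP-treated libraries for 11 of 16682 genes, or 0.0659%, and above them for 7. How many genes would show it without any difference between groups was not estimated. Below MPTP-Veh alone lay 311 genes, or 1.86%. Since Scara3 was chosen for this pattern, its place among the 11 is a description. It had the widest gap of group means, 0.57 on the log2 scale.

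The next genes in that order were Rtn4r, the Nogo receptor of neurons (gap 0.42), the tetraspanin Tspan4 (0.34), the phospholipase Pla2g4e (0.32) and Atp13a5, a P-type ATPase of brain pericytes (0.31). Jag1, a Notch ligand (0.23), the RNA-binding protein Rbm24 (0.20) and the zinc finger protein Zfp90 (0.17) followed. Rtn4r had 4.22 ± 0.37 CPM in spinal cord MPTP-SU, against 5.85 ± 0.86 with vehicle, 5.69 ± 0.35 with SR141714A and 6.05 ± 0.66 with T0070907 (SD, n = 4). For these 7 genes, the correlation with Scara3 after group means were removed ran from −0.56 to 0.49 over 20 libraries. They thus shared its low MPTP-SU values but not, in general, its differences between replicates. In the midbrain the same arrangement was found for 23 genes, and Scara3 was not one of them.

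Scara3 was then set beside its family. Colec12, the scavenger receptor of endothelium and stroma that binds carbohydrates, was the other class A member at a similar level. Its midbrain mean was 19.05 ± 3.78 CPM for Con, 11.9 ± 4.53 for MPTP-Veh, 12.3 ± 0.97 for MPTP-SU, 12.8 ± 4.03 with SR141714A and 14.3 ± 1.96 with T0070907. The spinal cord means were 10.3 ± 2.75, 11.5 ± 1.498, 9.98 ± 0.87, 12.1 ± 2.15 and 12.9 ± 1.41 CPM in the same order of groups (SD, n = 4). Its group means followed those of Scara3 in having Con highest in the midbrain and MPTP-SU lowest in the spinal cord.

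Colec12 was higher in midbrain Con than in spinal cord Con by 0.89 (SE 0.22, adjusted p = 0.00158 by edgeR), the same direction as Scara3. For the difference of the MPTP response between tissues it gave −0.83 (SE 0.31, adjusted p = 0.0871 by edgeR). Over the 20 libraries of a tissue its log2 CPM correlated with that of Scara3 with r = 0.72 for midbrain and r = 0.80 for cord, which ranked it 52 and 20 among the genes compared.

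The other members were scarce. Msr1, the macrophage scavenger receptor, had at most 10 counts in a midbrain library and at most 22 in a spinal cord library, and was tested only in the latter. There it had 0.425 ± 0.135 CPM for Con, 0.886 ± 0.358 for MPTP-Veh, 0.478 ± 0.139 for MPTP-SU, 0.722 ± 0.233 with SR141714A and 0.533 ± 0.101 with T0070907 (SD, n = 4). Against Con, MPTP-Veh gave 1.03 (SE 0.35, adjusted p = 0.2504 by edgeR). Marco, another macrophage receptor, had at most 12 counts in any library and was not tested.

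Scara5, a ferritin receptor of stromal cells, is also a neighbour of Scara3 on chromosome 14. It had 1.58 ± 0.45 CPM in midbrain Con and 0.97 to 1.13 CPM in the other midbrain groups, and its spinal cord means ran from 2.03 to 3.05 CPM. Its spinal cord correlation with Scara3 was 0.15, against 0.55 in the midbrain. Between MPTP-Veh and Con, edgeR called 0 of the 2 relatives tested in midbrain and 0 of the 3 tested in cord. In each tissue 1 of them had an unadjusted p-value below 0.05, and DESeq2 and limma-voom called 0 of them. Over all genes, 3945 of 16629 in midbrain and 2139 of 16682 in cord were below 0.05 unadjusted.

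In the reference order of genes, the tested neighbours of Scara3 were Elp3, Scara5 and Ccdc25 on one side and Clu, Ephx2 and Chrna2 on the other. Their spinal cord correlations with Scara3 ran from −0.32 for Ccdc25 to 0.54 for Chrna2, a nicotinic receptor subunit. In the midbrain they ran from −0.36 for Chrna2 to 0.55 for Scara5. Clu, the clusterin gene next to Scara3, averaged 832 CPM in midbrain and 706 CPM in cord. Ccdc25 was the neighbour of these 6 called in the midbrain between MPTP-SU and MPTP-Veh (−0.66, adjusted p = 0.0101 by edgeR). In that comparison 2237 of 16629 genes, or 13.5%, were called, and 572 of 16831 without MPTP-Veh replicate 4. For none of these 6 genes did the 4 spinal cord MPTP-SU libraries lie below the other MPTP-treated libraries.

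The genes whose levels ran most like Scara3 were looked for in each tissue, by Pearson correlation of log2 CPM over the 20 libraries among genes of at least 1 CPM on average. The values describe these libraries, which share groups and differ in depth, and carry no test. Leading the spinal cord list were Fmod, the matrix proteoglycan fibromodulin (r = 0.89), Cyp26b1, which degrades retinoic acid (0.89), and Aebp1, a collagen-binding matrix protein (0.88). Slc6a20a, a transporter of imino acids (0.87), Slc22a6, an organic anion transporter (0.86), and the fibronectin gene Fn1 (0.85) followed. The lowest were Sec62, a component of the protein translocation machinery (−0.80), the mitochondrial transfer RNA TrnG (−0.78) and the growth cone protein Basp1 (−0.76).

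In the midbrain the leading genes were Mgp, matrix Gla protein (r = 0.89), Serping1, the inhibitor of complement C1 (0.89), and Itih2, a hyaluronan-binding protein (0.86). Cped1 (0.85), the retinoic acid synthesising enzyme Aldh1a2 (0.85) and the proteoglycan gene Bgn (0.84) followed. The lowest were the mitochondrial ornithine transporter Slc25a15 (−0.74), the adaptor Shc4 (−0.71) and Dcaf12 (−0.70). Over all genes ranked the median r was −0.01 for midbrain and 0.01 for cord, with 17 and 19 genes above 0.8.

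**Figure D3:**
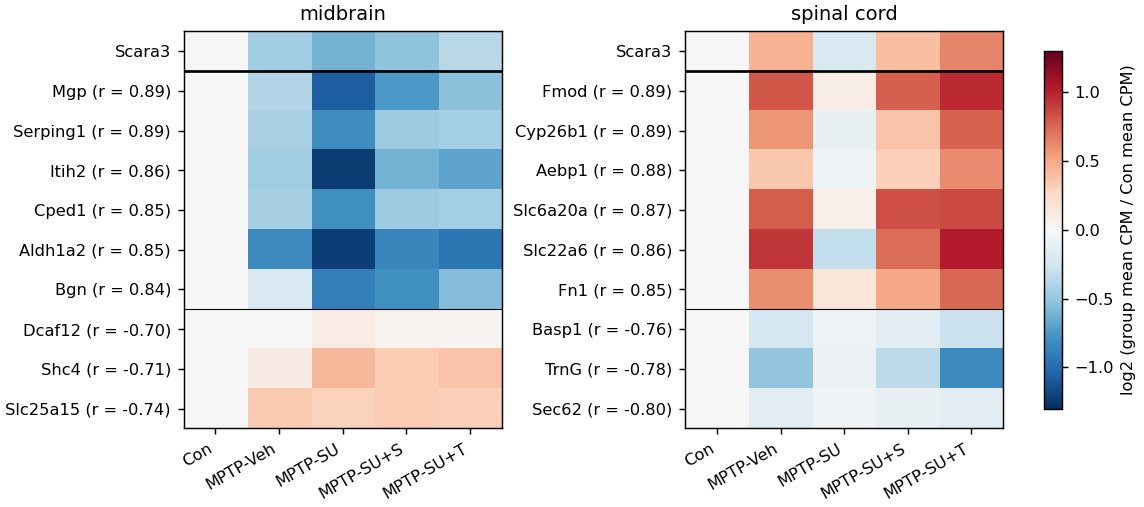
Group mean CPM relative to Con on a log2 colour scale, for Scara3 (top row) and the genes with the 6 highest and 3 lowest correlations with it, by group (columns), in the midbrain (left) and the spinal cord (right). Spinal cord Fmod goes from 31.4 CPM in Con to 55.0 in MPTP-Veh and 33.2 in MPTP-SU. In the midbrain Mgp is highest in Con, at 40.7 CPM.

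Many of these look-alikes are known from fibroblasts of the leptomeninges, the membranes that cover brain and cord. Of 16 markers of these cells, 13 were among the 100 midbrain genes most correlated with Scara3 and 6 among the 100 of the cord, of 14951 and 15025 genes ranked. Their median r was 0.74 for midbrain and 0.58 for cord. The cord ranking includes the differences between groups that chose the gene. With group means removed, Slc22a6 and Fmod ranked 36 and 45 in the cord. Igf2, Slc13a4, Slc6a13 and Ranbp3l, the other markers among the 100 of the cord, then ranked 136, 207, 287 and 307. Of 12 astrocyte markers 0 were among the 100 in either tissue, with a median r of 0.01 and 0.14. Since both tissues are whole dissections, fewer cells of a type and less RNA per cell cannot be told apart in such values.

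Fmod showed the likeness in both tissues. Its spinal cord means were 31.4 ± 7.10 CPM for Con, 55.0 ± 5.52 for MPTP-Veh, 33.2 ± 6.10 for MPTP-SU, 53.9 ± 18.3 with SR141714A and 61.6 ± 18.2 with T0070907 (SD, n = 4). Midbrain means were 54.8 ± 10.98 CPM for Con and 29.7 ± 11.7, 17.3 ± 4.79, 23.7 ± 14.4 and 21.95 ± 12.96 CPM for the other groups in that order. As with Scara3, Con was highest in the midbrain, and Con and MPTP-SU were lowest in the spinal cord.

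Igf2, a growth factor made by leptomeningeal fibroblasts, ran the same way. Its spinal cord means, in the same order of groups, were 72.4, 115, 76.8, 124 and 120.1 CPM. The midbrain means were 195, 120.2, 68.7, 93.9 and 93.1 CPM. Its correlation with Scara3 was 0.82 in both tissues. The collagen gene Col1a1 (0.33) and Dcn, decorin (0.09), followed Scara3 less closely in the spinal cord, and Ogn, osteoglycin, had an r of −0.13 there.

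As a list, the 16 markers gave a median log2 fold change between MPTP-Veh and Con of −0.56 for midbrain and 0.46 for cord, against 0.000131 and −0.00193 over all genes. Of the 16, 15 were negative in midbrain and 14 positive in cord. EdgeR called 0 of them in either tissue, with 3 and 8 at an unadjusted p-value below 0.05, and DESeq2 and limma-voom also called 0. Over all genes, 3945 of 16629 in midbrain and 2139 of 16682 in cord were below 0.05 unadjusted. For the difference of the MPTP response between tissues the median was −0.98, and 15 of 16 were negative, against a median of −0.00549 over all genes. There edgeR called 0 of the 16 (427 of 17426 genes), limma-voom 0 (13 genes) and DESeq2 3 (1349 genes). Unadjusted, 8 of the 16 and 4831 genes were below 0.05. Without midbrain MPTP-Veh replicate 4 this median was −0.99, with 16 of 16 negative and 0 called.

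For the 3 spinal cord comparisons that chose the gene, the medians of the list were −0.35 for SUEHP against vehicle, 0.40 for SR141714A added to SUEHP and 0.44 for T0070907 added to SUEHP. Of the 16 markers, 12 were negative in the comparison with vehicle, 16 were positive with SR141714A and 14 were positive with T0070907. In the midbrain the corresponding medians were −0.64, 0.31 and 0.23. In the midbrain with SUEHP, 14 of the 16 were negative, and without MPTP-Veh replicate 4 the median was −0.42. EdgeR called 0 of the 16 there (2237 of 16629 genes), DESeq2 2 (2779 genes) and limma-voom 0 (1708 genes). Unadjusted, 3 of the 16 and 6617 genes were below 0.05. Scara3 gave −0.17.

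The summed level of the 16 markers was 392 to 691 CPM for midbrain Con, 209 to 489 for MPTP-Veh, 225 to 295 for MPTP-SU, 114 to 462 with SR141714A and 248 to 473 with T0070907. Spinal cord sums were 375 to 546 CPM for Con, 459.8 to 637 for MPTP-Veh, 428 to 638 for MPTP-SU, 377 to 881 with SR141714A and 429.7 to 781 with T0070907. The spinal cord sums of MPTP-SU thus overlapped with those of all other groups. Scara3 overlapped there with Con only, but it was chosen for its gap to the other MPTP-treated groups. The comparison with the sums is therefore a description. No marker was at 0 in any library. Their part in the Scara3 differences was not tested.

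Markers of choroid plexus and of spinal roots also differed in level between the groups. The 5 tested of 6 choroid plexus markers gave a midbrain median of −1.92 between MPTP-Veh and Con, with 4 of 5 negative and 0 called by edgeR. Unadjusted, 4 of the 5 and 3945 of 16629 genes were below 0.05. DESeq2 called 3 of them (432 genes in all) and limma-voom 0. Their sum was 35.4 to 1245 CPM for midbrain Con and 27.7 to 44.6 CPM for MPTP-Veh, so 3 of the 4 Con libraries lay above all MPTP-Veh libraries.

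For the 6 markers of Schwann cells of spinal roots, the spinal cord median was −0.60 between MPTP-Veh and Con, with 6 of 6 negative and 0 called by edgeR. Unadjusted, 3 of the 6 and 2139 of 16682 genes were below 0.05, and DESeq2 and limma-voom called 0 of the 6. Against MPTP-Veh, MPTP-SU gave a median of 0.47 with 6 of 6 positive, and both antagonists then gave negative values for 6 of 6, with medians of −0.18 and −0.22. Their summed levels overlapped, at 474 to 1719.8 CPM for Con, 582 to 1081 for MPTP-Veh and 774 to 1585 for MPTP-SU. The signs of these 4 medians were opposite to those of the Scara3 differences. The part of either list in the Scara3 values was not tested.

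**Figure D4:**
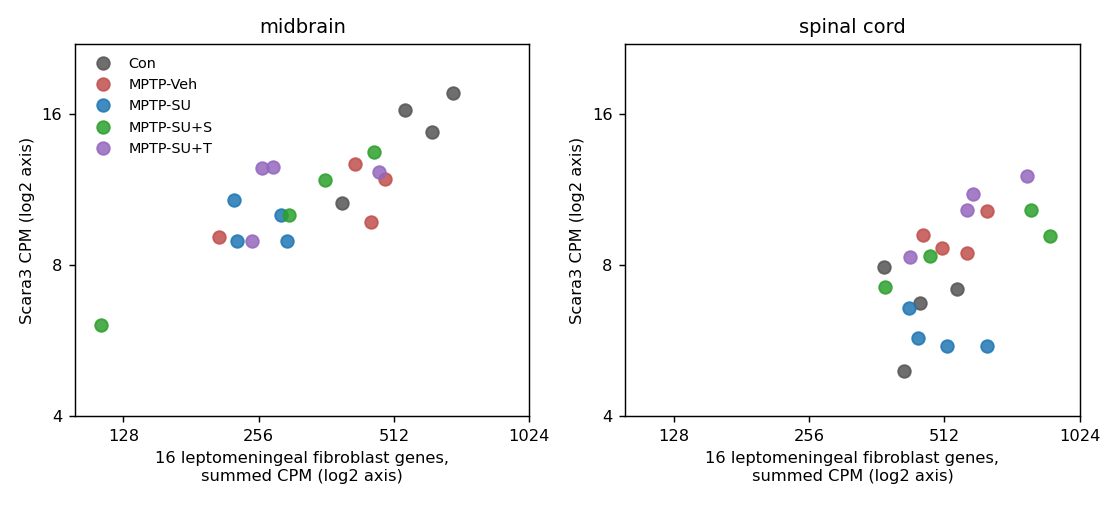
Scara3 CPM (vertical axis, log2 scale) against the summed CPM of 16 leptomeningeal fibroblast markers (horizontal axis, log2 scale) in the 20 midbrain libraries (left) and the 20 spinal cord libraries (right), coloured by group. In the midbrain both rise together from an MPTP-SU+S library at 114 CPM to a Con library at 691 CPM. The 4 spinal cord MPTP-SU points lie low at sums of 428 to 638 CPM.

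Within groups, the deviation of Scara3 from its group mean was compared with that of each of 16 lists in each tissue, 32 relations in all, with 100000 permutations within groups. Spinal cord Scara3 values also chose the gene, so the p-values for that tissue are given as a description. The lists were chosen with earlier results of these data known, which the adjustment over 32 relations does not cover. In the midbrain the leptomeningeal sum gave r = 0.79 (permutation test, p = 0.00196, adjusted p = 0.0365) and rho = 0.62 (permutation test, p = 0.0146, adjusted p = 0.156) over 20 libraries. Without the 2 libraries farthest from the median of the sum, r was 0.63. For the spinal cord it gave r = 0.50 (permutation test, p = 0.0542, adjusted p = 0.217) and rho = 0.37 (permutation test, p = 0.163, adjusted p = 0.411), and r was 0.42 without the 2 farthest libraries.

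The other relation with an adjusted p under 0.05 by Pearson's r was with the 4 relatives of Scara3 in the spinal cord (r = 0.79, permutation test, p = 0.00228, adjusted p = 0.0365; rho = 0.71, permutation test, p = 0.00368, adjusted p = 0.0589). It rests on libraries that chose the gene and is a description. It gave r = 0.61 without the 2 farthest libraries. Colec12 made up most of that sum. In the midbrain the relatives gave r = 0.65 (permutation test, adjusted p = 0.137). Blood vessel markers gave r = 0.74 in the midbrain (permutation test, p = 0.00745, adjusted p = 0.0795), close to the leptomeningeal value, and 0.25 in cord (adjusted p = 0.497 by the same permutation test). Oligodendrocyte precursor markers gave r = 0.66 in cord (permutation test, p = 0.0213, adjusted p = 0.136), above the leptomeningeal value there, and −0.18 in midbrain (adjusted p = 0.760 by the same permutation test). Astrocyte markers gave r = 0.21 in the midbrain (permutation test, adjusted p = 0.589) and 0.44 in the spinal cord (permutation test, adjusted p = 0.375).

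Genes of the defence against reactive oxygen species were examined because of the known role of Scara3. In the midbrain between MPTP-SU and MPTP-Veh, edgeR called 6 of 26, where 13.5% of all genes were called, and Scara3 was not. Sod1 (−1.06), Sod3 (−0.71) and Prdx5 (−1.24), which remove superoxide and peroxides, fell in log2 level, and Nqo1 (0.62), Gclm (0.70) and Prdx3 (0.65), enzymes of quinone, glutathione and mitochondrial peroxide metabolism, rose. The median of the list was −0.04, against 0.000686 over all genes. Without MPTP-Veh replicate 4, 2 of the 26 were called, where 572 of 16831 genes were, and the median of the list was 0.06.

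For spinal cord MPTP-Veh against Con the list had a median of 0.02, where Scara3 gave 0.45. EdgeR called 0 of 26, with 4 at an unadjusted p-value below 0.05, where 2139 of 16682 genes were. DESeq2 and limma-voom called 0. Within spinal cord groups the sum of the list ran against Scara3 (r = −0.72, permutation test, p = 0.00997, adjusted p = 0.0798; rho = −0.69, permutation test, p = 0.00265, adjusted p = 0.0589). That relation did not pass the correction, and it rests on libraries that chose the gene. Without the 2 farthest libraries r was −0.43. In the midbrain the same relation had r = −0.07.

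Across the tissues, deviations of Scara3 from the group mean in the midbrain were compared with those of the library with the same group and number in the spinal cord. Over 20 such pairs r was −0.04 (permutation test, p = 0.890) and rho was 0.11 (permutation test, p = 0.684), and r was 0.13 without the 2 farthest pairs. No match of Scara3 levels between same-numbered libraries was detectable in these pairs.

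The targets of the antagonists were not called with MPTP in either tissue. Cnr1, which encodes CB1, gave −0.77 (SE 0.35, adjusted p = 0.196 by edgeR) in midbrain and 0.30 (SE 0.08, adjusted p = 0.191) in cord between MPTP-Veh and Con, the same signs as Scara3. Pparg, which encodes PPARγ, gave −0.80 (SE 0.44, adjusted p = 0.262 by edgeR) in midbrain and −0.00 (SE 0.24, adjusted p = 0.998) in cord, at 0.747 to 1.61 CPM as group means. Midbrain MPTP-Veh replicate 4 had a summed level of the 2 genes of 8.93 CPM, against 35.6 to 60.2 CPM in the rest of its group. Without that library their median midbrain log2 fold change was −0.55, where all libraries gave −0.78. In each tissue 1 of these 2 genes had an unadjusted p-value below 0.05, and DESeq2 and limma-voom called 0 of them. Over all genes, 3945 of 16629 in midbrain and 2139 of 16682 in cord were below 0.05 unadjusted.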

How the data were processed

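Polyadenylated RNA from whole midbrain and spinal cord was sequenced as paired-end reads. The deposited tables hold 1 estimated count per gene symbol and library, which the authors obtained with Salmon and which are whole numbers without normalization. The submitters' processing notes name fastp, STAR, Salmon and GATK and the build GRCm39, without versions. No coordinates are given, since the reference annotation held here is of another build and was used for gene order only.

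In R 4.3.3, low counts were removed with filterByExpr of edgeR 4.0.16. Counts were then scaled by TMM and fitted by quasi-likelihood over the 20 libraries of a tissue, or over all 40 for comparisons between tissues, with Benjamini-Hochberg adjustment over all genes tested. A call needed more than 1.5-fold and an adjusted p-value under 0.05. SE was the log2 fold change over the root of the F statistic. Log2 CPM used a prior count of 2. Single values were tested by exact permutation over all 70 arrangements of 4 against 4. DESeq2 1.42.0, limma-voom (limma 3.58.1), other scalings, no filter, fewer libraries, a replicate block and each library left out in turn were alternatives. Midbrain comparisons of treated groups with Con, and list counts without midbrain MPTP-Veh replicate 4, were added after the data had been seen. The models were tested on simulated data.

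Scara3 and the gene lists were chosen with earlier results of these data known. Genes were named by rule, as the family, the neighbours, the 6 highest and 3 lowest correlations per tissue, the 8 widest spinal cord gaps, and called or leading list members. Of the lists with sums compared with Scara3, those for oligodendrocytes, microglia, neurons, Schwann cells, skeletal muscle, choroid plexus, ependyma, red blood cells, other scavenger receptors and the antagonists' targets gave adjusted p-values from 0.217 to 0.989 (permutation test within groups, Pearson's r).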

Additional observations from a re-analysis of the deposited data

Results flagged for a closer look

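In midbrain MPTP-SU+T, replicate 4 read 8.93 CPM of Scara3, and the nearest of the other 3 libraries read 12.2 CPM. That gap was 0.926 of the range of the group, past Dixon's limit for 4 values. Of 10 groups examined this was the one past the limit, and chance passes about 1 in 20. Without this library the midbrain log2 fold change of MPTP-SU+T against MPTP-SU was 0.35, where all 4 libraries gave 0.25.

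The log2 fold change of Scara3 for MPTP-Veh against Con in the midbrain minus that in the spinal cord was −0.91 (SE 0.25). It was flagged by the threshold of the main model. The spinal cord MPTP-Veh libraries are among those that chose the gene, which tilts this value towards negative, so the flag is not read as a test. The flag was also lost under 6 of 8 alternatives and without any 1 of 11 of the 16 libraries. Whether the tissues differ in the response of Scara3 to MPTP was not tested.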

How the results depend on the processing

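The difference between tissues in MPTP-Veh against Con, which the choice of the gene tilts, is given by its values alone. With library size alone it was −1.0035, and without mitochondrially encoded and haemoglobin genes in the library size −1.13. No low-count filter gave −0.92, limma-voom −0.92 and the replicate block −0.91. The 16 libraries compared alone, which are fewer samples by construction, gave −0.89. RLE size factors and DESeq2 gave −0.89 each. Leaving out single libraries gave −1.02 to −0.77.

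Signs turned when midbrain MPTP-SU+S lost a library. MPTP-SU+S against MPTP-SU ranged from −0.053, without MPTP-SU+S replicate 2, to 0.28. MPTP-SU+T against MPTP-SU+S ranged from −0.027, without MPTP-SU+S replicate 1, to 0.31. Neither was called in any of these fits. The 3 spinal cord differences that chose the gene stayed within −0.71 to −0.58, 0.50 to 0.66 and 0.76 to 0.92 without single libraries. Spinal cord MPTP-Veh against Con, which also carries no test, ranged from 0.33 to 0.54 over 8 such fits.

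Of the 6 genes named as most like Scara3, 3 for midbrain and 4 for cord were also among the 6 highest by Spearman's rho, and 4 and 1 by deviations from group means. The spinal cord pattern held for 8 genes with library size alone and for 11 with TMM.

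The criterion that every pair correlate above 0.1 was not met, which does not show that the libraries are unpaired. Between tissues, libraries of the same group and number correlated over all genes with r from −0.19 to 0.34, above 0.1 in 4 of 20 pairs. Of 20 libraries, 12 correlated best with their own number among 4 candidates, where 5 would if numbers carried nothing. This is a sign of pairing from the data, which the labels do not give. Whether same-numbered libraries share a mouse stays unsettled. The main model over both tissues treated all libraries as independent. The replicate block changed no Scara3 call among the comparisons given with a test. Depth limits the scarce family members most.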
